A study of Drosophila melanogaster with 13 samples.

Results

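RNA of ovarian somatic cells (OSC) depleted of Armitage was compared with RNA of control cells, and every row of the authors' deposited table for that comparison was used. The table held 8475 rows, 8291 of them genes and 184 of them transposon rows, and the 2 kinds were described apart. OSC is an established line of Drosophila melanogaster follicle cells, the somatic cells that surround the germ line in the ovary, and it was used here with a wildtype genotype. In the siARMI group the cells received small interfering RNA (siRNA) against armi, and in the siLUC group siRNA against luciferase, a firefly gene that flies lack. Both groups were transfected at 0 h and again at 48 h and were harvested at 96 h, so the control cells carry the same handling. Each group had 3 of the 13 libraries of the series, made from poly(A)-selected RNA with a directional kit per the labels. The library titles also bear a tag, RZ, whose meaning is not given. A single line without germ cells stands for the tissue. Whether the 3 libraries of a group are separate cultures is not given in the labels, so a p-value here covers the spread between these libraries and no more, and that spread may be technical.

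Armitage is an RNA helicase of the PIWI-interacting RNA (piRNA) pathway. It gathers with the Tudor protein Yb in cytoplasmic bodies, binds piRNA precursor transcripts and carries them to the surface of mitochondria, where the nuclease Zucchini cuts them into piRNAs. The piRNAs guide Piwi to nascent transposon transcripts in the nucleus, and in follicle cells many of them come from the flamenco locus and are antisense to retrotransposons of the gypsy group.

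The authors' deposited table gives 4 values used here for each row. They are the mean normalised count, the log2 fold change of siARMI over siLUC, which the authors had shrunk toward 0, the error of that fold change, and an adjusted p-value. Values are written below as log2 fold change ± that error, with 3 libraries in each group. A row was called higher or lower where the adjusted p (Benjamini-Hochberg) was under 0.05. The table holds no value per library, so the spread among the libraries of a group cannot be shown. To give a level in each group, the mean count was divided between control and knockdown by the fold change. These implied levels are approximate, since shrunk fold changes understate the change of rows with few reads. In bulk RNA, fewer cells of a type and less RNA per cell cannot be told apart.

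The targeted transcript was lower in the knockdown. In the authors' deposited table armi (chromosome 3L, 3461317 to 3466314, plus strand, BDGP6.54) had a mean count of 5549 and a log2 fold change of −1.92 ± 0.07, for implied levels of 8772 in the control and 2326 after knockdown (Benjamini-Hochberg adjusted p = 3.98e-174). Among genes of its count class it had the fifth lowest fold change of those called. Of the annotated exon bases of armi 99.6% are also exon bases of CG46463 on the same strand, which stood at −1.57 ± 0.29 in the authors' deposited table. Reads of the locus can be given to either gene, so the values of both are uncertain and are not read here as those of separate genes.

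The labelled cell type was checked with marker lists. Of 17 follicle cell markers 16 were measured, 6 rose, 7 fell and 3 were not called, and their summed implied level was 28638 in the control and 27005 after knockdown. The ones with most reads fell slightly in the authors' deposited table: zfh1, a zinc finger factor of somatic ovary cells, had a mean count of 7939 and stood at −0.23 ± 0.08, and the Maf factor tj had a mean count of 5825 and stood at −0.30 ± 0.07. Others rose in the authors' deposited table, among them the homeodomain factor ct at 2.53 ± 0.17, the zinc finger factor cas at 2.53 ± 0.20 and the adhesion protein Fas3 at 2.13 ± 0.18. Markers of other cells had lower median counts than the 623.7 of the follicle cell list, by differing amounts. Germ cell markers had a median count of 14.3 over 15 measured of 19, with 2 higher and 3 lower. Of the 15, 3 lay at or above the median of all genes, and the highest mean count was 833.6. The 15 had a summed implied level of 2067 in the control and 1842 after knockdown. The germ cell helicase vas had a mean count of 6.34 and the differentiation factor bam one of 2.29 in the authors' deposited table, nos had no row, and neither vas nor bam was called. Muscle markers were measured for 6 of 13, with 1 higher and 1 lower and a sum that went from 731 to 367, and Zasp66 made up most of the control sum. Of 11 markers of neurons and glia 8 were measured, with 3 higher and 0 lower and a sum that went from 803 to 1239. Of 12 markers of hemocytes and fat body 5 were measured, with 2 higher and 1 lower and a sum that went from 1329 to 1494, and their median count was 280.4, with 3 of the 5 at or above the median of all genes. The part of other cells in the results that follow was not tested.

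Transposon rows held 10.1% of all normalised counts, 9.32% on sense rows and 0.756% on antisense rows, and their summed implied level went from 485862 in the control to 766073 after knockdown. The sense rows accounted for the whole of that gain, going from 430412 to 727564, while the antisense rows went from 55451 to 38509. Of 91 sense rows 41 were called higher (45.1%) and 5 lower (5.49%), or 50.5% together. Of 93 antisense rows 8 were called higher (8.6%) and 24 lower (25.8%), or 34.4% together. Among genes 14.9% were called higher and 13.4% lower. A strand tag at the end of a row name was taken to mean the antisense strand, a reading that the files do not document.

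The family with the most reads did not pass the test. The gypsy-group element springer held 48.2% of transposon counts over both groups, with a mean count of 301541, and stood at 0.08 ± 0.05 in the authors' deposited table. The copia element, named for its copious RNA, held 16% and rose by 0.28 ± 0.08 in the authors' deposited table. The 3 largest rises on the sense strand were those of mdg1, 412 and 297, each with an implied control level of 283 or less. The mdg1 sense row went from an implied level of 283 to one of 51877, at 7.52 ± 0.09 in the authors' deposited table, and held 4.17% of transposon counts over both groups. The 412 sense row went from 161 to 10521 and the 297 sense row from 139 to 8537 in implied level. From a higher start, gypsy went from 7110 to 120172 and blood from 1604 to 45749. Each of these 5 families is a long terminal repeat (LTR) retrotransposon of the gypsy group.

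**Figure D1:**
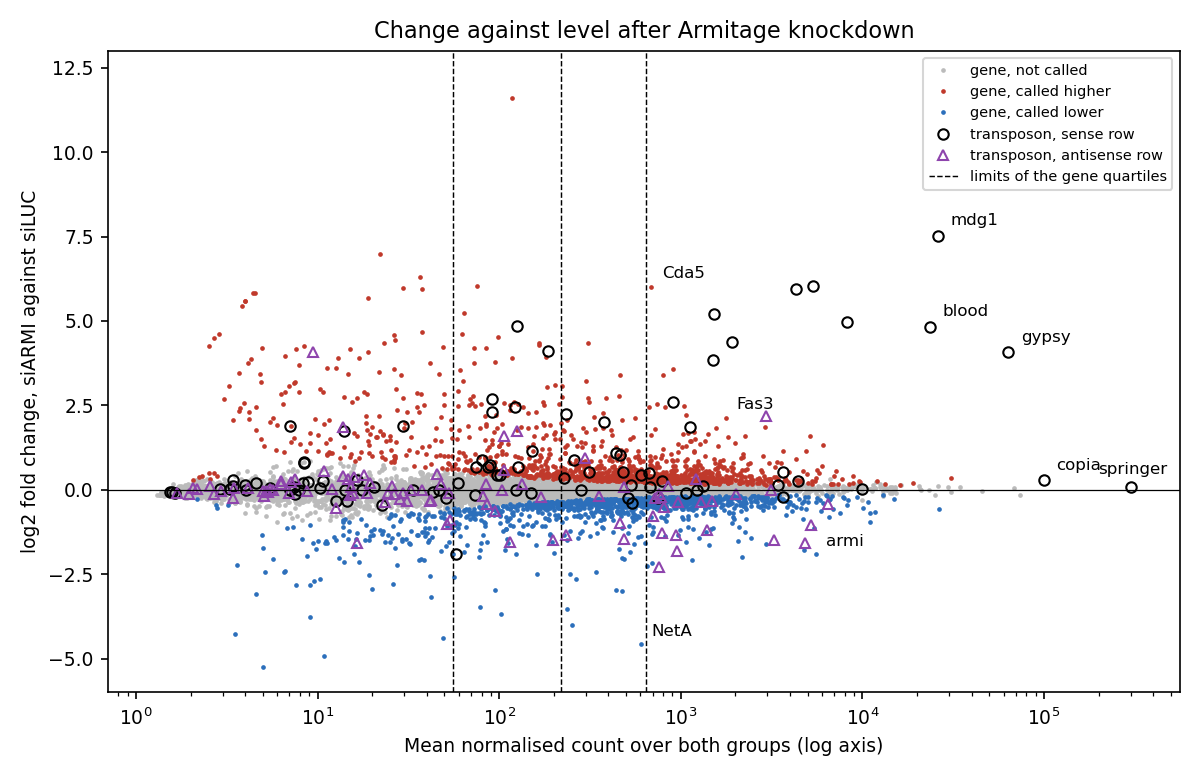
Log2 fold change of siARMI over siLUC (vertical axis) against mean normalised count on a log axis (horizontal) for genes and for transposon rows of each strand, from the authors' deposited table. The springer sense row lies farthest right among transposon rows, near 0 on the vertical axis, while mdg1, 412 and 297 lie at 5.94 or above.

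Sorted by class, the sense rows of the gypsy group were called higher in 20 of 40 and lower in 4, and those of the copia class in 4 of 5 with 0 lower. Non-LTR retrotransposons, which copy themselves without terminal repeats, were higher in 11 of 20 and lower in 0. Of 8 BEL/Pao rows 2 were higher and 1 lower, of 13 DNA transposons 2 were higher and 0 lower, and of 3 telomeric elements 2 were higher and 0 lower. On the antisense strand 17 of 42 gypsy-group rows were lower and 3 higher, against 4 lower and 2 higher of 21 non-LTR rows and 1 lower and 2 higher of 13 DNA transposon rows. Calls were rarer at low counts on both strands: of the 35 sense rows with a mean count under 55.6, the lower quartile of genes, 3 were higher and 0 lower, and of the 53 antisense rows there 2 were higher and 3 lower.

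The 5 sense rows called lower were small changes but for 1. In the authors' deposited table gypsy3_new stood at −1.90 ± 0.33, while Circe, invader3 and diver stood between −0.25 and −0.22 and Repbase_Chimpo at −0.40 ± 0.11. Outside the gypsy group the sense row of NOF, part of the foldback DNA transposon family, rose by 4.11 ± 0.22 in the authors' deposited table. Small gains were called where reads were many: the R2-element, which inserts in ribosomal DNA, rose by 0.52 ± 0.06 at a mean count of 3635, and the 1731 sense row by 0.25 ± 0.07 at one of 4394 in the authors' deposited table.

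The strands of a family moved apart more often than together. Of 84 families with a row on each strand, 18 were higher on the sense and lower on the antisense strand, 4 were higher on both and 0 were lower on both. Another 18 were higher on the sense strand with the antisense not called, 6 were lower on the antisense strand with the sense not called, and 30 were called on neither. The 4 families higher on both strands were Quasimodo, roo, Doc and Repbase_FB4. The 2 strands of a family have the same length, so their levels can be set side by side. Of 59 families with a mean count of at least 10 on each strand, antisense exceeded sense in 31 in the control and in 19 after knockdown. Counted by the sign of the balance alone, 12 families turned to sense and 0 to antisense.

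Those 12 were 297, 412, flea, gypsy6_new, I-element_new, mdg1, NOF, Quasimodo, Stalker, Stalker2, Tabor and ZAM. In some of them the strands were near level in the control. The log2 ratio of sense over antisense there was −0.05 for Quasimodo, −0.14 for gypsy6_new and −0.27 for NOF. The sense row of gypsy6_new was not called. For 412 the log2 ratio of the implied sense level over the implied antisense level went from −4.91 in the control to 2.62 after knockdown, and its antisense row went from an implied level of 4850 to one of 1714. For mdg1 the same ratio went from −2.25 to 6.60, and its antisense row went from 1346 to 536. The gypsy strands stood level in the control, and the ratio went from 0.03 to 5.14 as the antisense row went from 6975 to 3402 in implied level. In other families antisense remained above sense. The antisense row of gypsy5 fell by 1.81 on the log2 scale in the authors' deposited table, and the log2 ratio of sense over antisense was −0.82 after knockdown against −7.46 in the control. For gtwin the ratio went from −7.89 to −4.0 and for rover from −6.65 to −2.48. The antisense row of blood was not called, at 0.08 ± 0.10 in the authors' deposited table, while its sense row rose.

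A few families went the other way. The antisense row of roo, a BEL/Pao element, rose by 2.18 ± 0.09 in the authors' deposited table, from an implied level of 1060 to one of 4801, and its sense row by 0.49 ± 0.10, so the log2 ratio of sense over antisense went from −0.93 to −2.63. Antisense rows also rose for Transpac at 1.75 ± 0.19 and invader2 at 1.59 ± 0.21 in the authors' deposited table, and the sense rows of both were not called. The antisense row of transib2, a DNA transposon with no sense row, stood at 4.09 ± 0.99 in the authors' deposited table (Benjamini-Hochberg adjusted p = 5.66e-05). The mean count of that row lay under 55.6, the lower quartile of genes. Antisense fell without a call on the sense strand for 3S18, G6, gypsy10_new, gypsy2_new, gypsy6_new and jockey, by between 0.38 and 1.54 on the log2 scale.

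**Figure D2:**
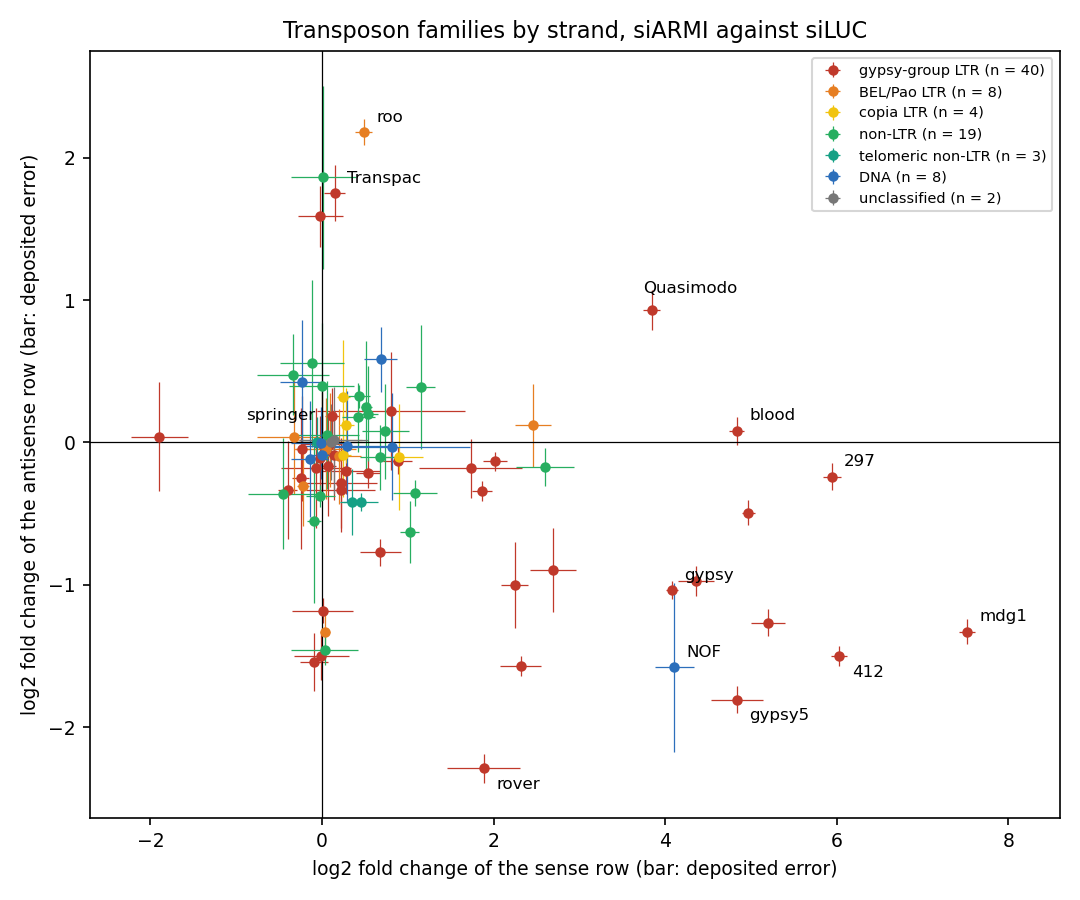
Log2 fold change of the antisense row (vertical axis) against that of the sense row (horizontal axis) for each of the 84 transposon families with a row on each strand, from the authors' deposited table. The 18 families higher on the sense and lower on the antisense strand lie at lower right, with mdg1 farthest right at 7.52, and roo stands highest at 2.18.

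Among genes the knockdown moved 1239 of 8289 tested higher (14.9%) and 1109 lower (13.4%), or 28.3% together, with a median log2 fold change of −0.01 over all genes. Changes of at least 1 on the log2 scale were called higher in 323 genes (3.9%) and lower in 192 (2.32%). Genes were put into 4 classes by the quartiles of their mean normalised count, whose limits were 55.6, 219.2 and 646.2. The top class held 80.0% of all gene counts and the bottom class 0.617%. Counts rise with transcript length as well as with RNA level, and 2673 of 8284 genes fell in another class when the count was taken per kb.

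More genes were called at each higher class, and the changes called were smaller. In the bottom class 177 genes were higher (8.54%) and 128 lower (6.18%), in the second class 245 higher (11.8%) and 201 lower (9.7%), in the third class 322 higher (15.5%) and 336 lower (16.2%), and in the top class 495 higher (23.9%) and 444 lower (21.4%). The median error of the log2 fold change fell with it, from 0.39 in the bottom class to 0.18, 0.12 and 0.08. The median size of a called change was 1.52 in the bottom class, 0.65 and 0.43 in the middle ones and 0.33 in the top class. Of the called genes 78.0% changed by at least 1 in the bottom class and 7.24% in the top class. With a size of at least 1 asked for, the called share was 11.5% of genes in the bottom class and 3.28% in the top. In absolute numbers the large changes also thinned, from 146 higher and 92 lower in the bottom class to 41 higher and 27 lower in the top. The smallest size called was 0.26 in the bottom class, 0.33 and 0.23 in the middle ones and 0.13 in the top, on the shrunk scale. Genes were also left uncalled where reads were many: in the top class 639 genes (30.8%) had a size under 0.1 and were not called.

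**Figure D3:**
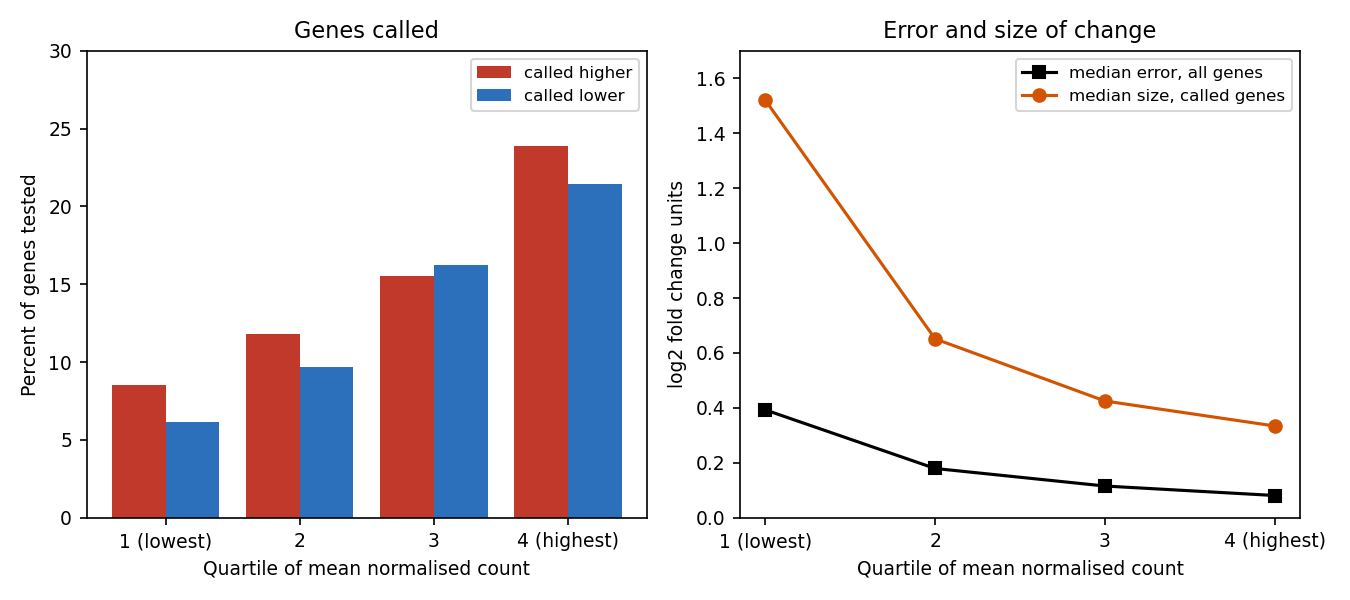
Share of genes called higher and lower, and the size of the change in called genes, for the 4 classes of mean normalised count. The called share goes from 14.7% in the bottom class to 45.3% in the top class, while the median size of a called change goes from 1.52 to 0.33 on the log2 scale.

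The largest fold changes of the top class were gains. Cda5 (chromosome 2L, 25402 to 65404), a chitin deacetylase, had the largest, at 6.01 ± 0.18 in the authors' deposited table, from an implied level of 21 to one of 1358. Ret, a receptor tyrosine kinase, went from 141.5 to 1681 at 3.57 ± 0.10 in the authors' deposited table. Oat, the mitochondrial enzyme ornithine aminotransferase, went from 139.7 to 1465 at 3.39 ± 0.10. The implied control level of all 3 lay below 646.2, the limit of the top class. CG17816 at 2.55 ± 0.10 and p130CAS, an adaptor of integrin signalling, at 2.48 ± 0.09 followed in the authors' deposited table. The falls of the class larger than that of armi were those of the transporter MFS3 at −2.27 ± 0.11, CG9521 at −2.16 ± 0.23, RhoGAP100F, a protein of the presynapse in neurons, at −2.09 ± 0.10, and CG7194 at −2.0 ± 0.09 in the authors' deposited table.

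In the third class the atypical cadherin stan, known for planar cell polarity, rose by 4.35 ± 0.19 in the authors' deposited table, from an implied level of 28.8 to one of 585. NT5E-2, an ecto-5′-nucleotidase, rose by 3.41 ± 0.13, the tetraspanin TM4SF by 3.23 ± 0.16, the potassium channel Shal by 3.07 ± 0.17 and CG2233 by 2.78 ± 0.12 in the authors' deposited table. The largest fall of the class was NetA, a secreted axon guidance cue, whose implied level went from 1160 to 48.7 at −4.57 ± 0.16 in the authors' deposited table. The muscle protein gene Zasp66 stood at −4.0 ± 0.21, the transcription cofactor nab at −3.52 ± 0.20, CG9336 at −2.99 ± 0.14 and CG34398 at −2.96 ± 0.13.

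In the second class Apoltp, a lipid transfer apolipoprotein, rose by 6.04 ± 0.54 in the authors' deposited table, from an implied level of 2.25 to one of 148.4. The tubulin cofactor-like mlt at 5.22 ± 0.47, CG32944 at 4.62 ± 0.40 and Grd, a subunit of ligand-gated chloride channels, at 4.54 ± 0.33 came next in the authors' deposited table. Grd shares 27.5% of its exon bases with CG5577 on the other strand. His2B:CG33902 had the largest fold change of any gene, 11.61 ± 3.14 in the authors' deposited table, but it is 1 of many near-identical histone copies and its value is uncertain. The largest falls were those of atilla, a surface protein known from lamellocytes, at −3.69 ± 0.30, the protein kinase C gene Pkc53E at −3.48 ± 0.33, CG9743 at −2.96 ± 0.27, CG32599 at −2.60 ± 0.35 and CG4733 at −2.51 ± 0.20 in the authors' deposited table. All exon bases of CG32599 lie in an antisense gene, so its reads are uncertain.

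The bottom class held genes near the limit of detection in 1 of the groups. CG15278 rose by 6.98 ± 1.31, Desi, which protects larvae against drying, by 6.31 ± 0.85 and Rbp6, an RNA-binding protein of the Musashi family, by 5.94 ± 0.75 in the authors' deposited table, each with an implied control level of 1.21 or less. The cuticle protein gene Cpr92F stood at 5.84 ± 2.60 with a mean count of 4.54 in the authors' deposited table. The reads of tal-1A, at 5.98 ± 0.85 in the authors' deposited table, cannot be told from those of tal-2A, tal-3A and tal-AA, which lie on the same transcript. The Bcl-2 family gene Buffy fell by 4.39 ± 0.51 in the authors' deposited table, from an implied level of 93.4 to one of 4.46, the most reads among the falls named in this class. VepD at −5.26 ± 2.52, the LIM homeodomain factor Lmx1a at −4.91 ± 1.34, CG9919 at −4.28 ± 2.62 and CG4341 at −3.77 ± 1.12 had mean counts of 10.8 or less in the authors' deposited table.

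At the other end, the 10 genes with the highest mean counts stayed within a narrow range, and 2 of them were called. The neuronal capsid-like gene Arc1, with the highest mean count at 73381, stood at −0.14 ± 0.07 and the elongation factor eEF1alpha1 at 0.04 ± 0.06 in the authors' deposited table. The chaperone Hsp83 rose by 0.34 ± 0.05 (Benjamini-Hochberg adjusted p = 2.78e-10) and the histone row His2A:CG33808 fell by 0.58 ± 0.17 (Benjamini-Hochberg adjusted p = 0.00159) in the authors' deposited table. Over the 20 tested rows of replication-dependent histone copies 1 was higher and 9 lower, with a median of −0.29. Copies of a histone share nearly all of their sequence, and most histone messages end without a poly(A) tail, so these rows are uncertain in RNA labelled as poly(A)-selected. Their mean counts ranged from 2.48 for His4:CG33869 to 26295 for His2A:CG33808, with His3:CG33803 at 11707, in the authors' deposited table. How the high counts go with the labelled selection was not tested.

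Lists of genes that work together differed in direction, against 14.9% higher and 13.4% lower over all genes. The lists were chosen with earlier results of these data known, so they are a description and carry no test. Calls rise with the count, and 23.9% of the top class were higher and 21.4% lower, which is the nearer background for the lists whose median count lies above 646.2. Among those described next these are actin, kinesins and tubulins, the tricarboxylic acid cycle, nucleotides, ribosome biogenesis, histone variants and mitochondrial import. Among genes of the actin cytoskeleton 18 of 44 were higher and 1 lower, with a median of 0.21. The formin capu rose by 2.21 ± 0.22, the tropomyosin Tm1 by 0.88 ± 0.10 and the filamin jbug by 0.85 ± 0.08 in the authors' deposited table, and ena, which promotes filament elongation, fell. Of 24 autophagy genes 9 were higher and 0 lower, with a median of 0.17. Atg16, which acts in attaching Atg8 to the autophagosome membrane, led them at 0.90 ± 0.10 in the authors' deposited table. Of 37 genes of kinesins, dyneins and tubulins 13 were higher and 2 lower. The tubulin isotype betaTub60D rose by 1.60 ± 0.08 in the authors' deposited table, from an implied level of 2552 to one of 7749, and futsch, a microtubule-associated protein of neurons, fell by 1.26 on the log2 scale.

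Lists of the cell surface and of patterning were also called higher more often than lower. Of 24 genes of septate junctions, which seal insect epithelia, 8 were higher and 2 lower, among them wun at 2.02 ± 0.38 and Gli at 0.68 ± 0.10 in the authors' deposited table. Of 26 ion channel genes 10 were higher and 4 lower, led by the potassium channel genes Elk at 3.91 ± 0.26, Shal and KCNQ at 2.59 ± 0.22 in the authors' deposited table. The transient receptor potential channel wtrw fell by 1.67 on the log2 scale. Of 32 axon guidance and synaptic adhesion genes 9 were higher and 4 lower, near the background for falls. The list leaves out NetA, whose fall is given above. Sema5c at 1.7 ± 0.08 and Fas2 at 1.56 ± 0.09 were among the higher in the authors' deposited table. Con, at −1.04 ± 0.11 in the authors' deposited table, was among the lower. Of 48 Hox and patterning genes 16 were measured, with 7 higher and 3 lower. Antp, which specifies thoracic segments, stood at 1.58 ± 0.18 in the authors' deposited table. It shares 50.1% of its exon bases with CG46458 on the same strand, so its value is uncertain. The sister genes bab1 at 1.82 ± 0.18 and bab2 at −1.17 ± 0.10 lay on opposite sides in the authors' deposited table. Of 18 chitin and cuticle genes 6 were higher and 1 lower, among them neo, a zona pellucida domain protein of the apical matrix, at 3.95 ± 0.21 in the authors' deposited table.

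Genes of DNA repair and of metabolism were called lower more often than higher. Of 42 genes listed for DNA damage and repair 16 were lower and 1 higher, with a median of −0.26. That list is wider than repair. Its lower members include PCNA, DNAlig1, RnrL and RnrS, which also serve DNA replication or nucleotide supply. The break-processing factor rad50 stood at −0.80 ± 0.14, the single-strand break scaffold XRCC1 at −0.76 ± 0.10 and the ribonucleotide reductase subunit RnrS at −0.68 ± 0.08 in the authors' deposited table, while the checkpoint kinase grp rose by 0.38 ± 0.08. Of 25 genes listed for the tricarboxylic acid cycle 14 were lower and 1 higher, with a median of −0.20. They included kdn, citrate synthase, at −0.80 ± 0.09, and the malic enzyme Men at −0.74 ± 0.12, and Ogdh was the member that rose, by 0.20 ± 0.06 in the authors' deposited table. The list is wider than the cycle itself. Among its lower members Mtpalpha is an enzyme of fatty acid oxidation, and Gdh, Got1, Got2, Mdh1, Men and Pdhb act beside the cycle. Of 24 genes of nucleotide and one-carbon metabolism 11 were lower and 3 higher, with a median of −0.23. Thymidylate synthase Ts stood at −0.80 ± 0.13 and CTPsyn, the enzyme that makes CTP, at −0.79 ± 0.11 in the authors' deposited table.

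The same direction was seen for genes of nucleoli, chromatin assembly and mitochondrial import. Of 27 ribosome biogenesis genes 9 were lower and 0 higher, with a median of −0.19, and they included the box C/D particle protein nop5 and the box H/ACA particle protein NHP2. Of 16 histone variants and chaperones 9 were lower and 2 higher. Ssrp, a subunit of the histone chaperone FACT, stood at −0.44 ± 0.07 and the variant His2Av at −0.39 ± 0.10, and the replacement histone genes His4r at 0.36 ± 0.09 and His3.3B at 0.18 ± 0.06 were the ones that rose in the authors' deposited table. Of 29 mitochondrial import and quality control genes 11 were lower and 1 higher. The chaperonin Hsp60A stood at −0.53 ± 0.07 in the authors' deposited table and the small heat shock gene Hsp22 was the member that rose, at 1.16 ± 0.13.

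**Figure D4:**
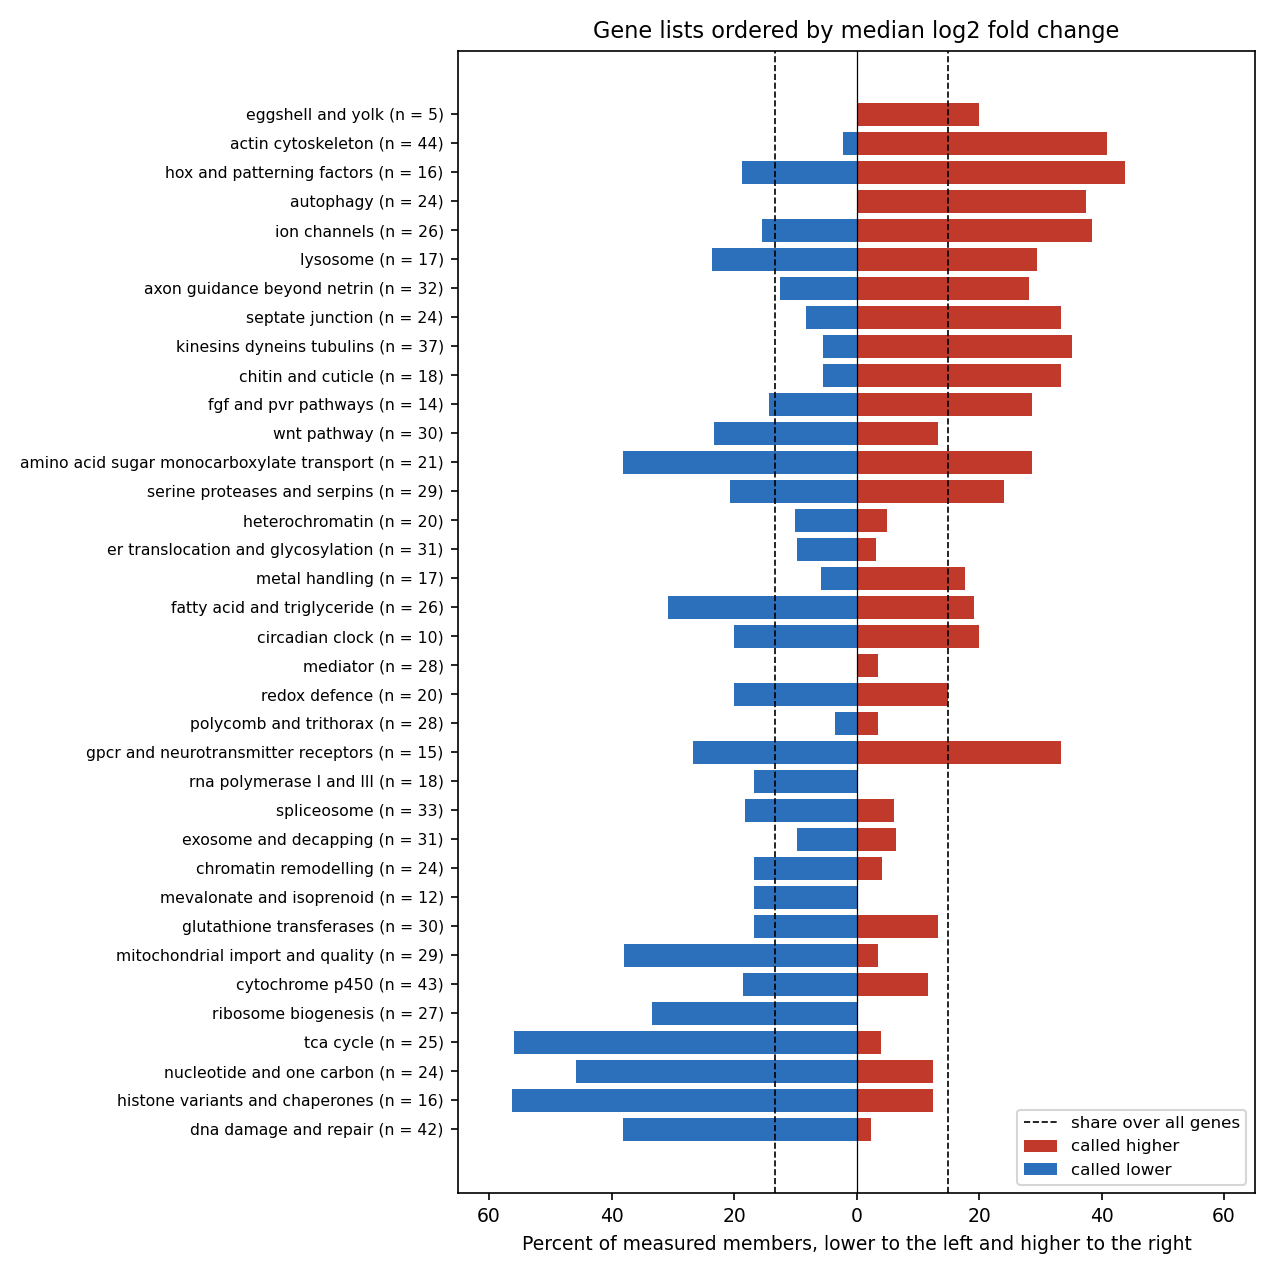
Share of measured members called higher and lower for gene lists, beside the share over all genes. The actin list has 18 of 44 members higher and 1 lower, and the DNA repair list 1 of 42 higher and 16 lower.

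Over all genes, those with much intron sequence were called more often than those with little. Intron length here is the summed length of the introns of a gene's longest annotated transcript, and the 8284 genes placed on the 6 chromosome arms were divided into quartiles of it. The quartile with the longest introns had at least 2.35 kb in all. In it 551 genes were higher (26.6%) and 318 lower (15.4%), against 7.93% higher and 11.4% lower in the quartile with the shortest introns. The 843 genes with no intron had 8.56% higher and 11.2% lower. The median log2 fold change was 0.06 with the longest introns and −0.04 with the shortest. Transcript length showed the same direction. Its shortest quartile had 9.08% higher and 9.66% lower, and its longest 20.8% higher and 16.6% lower. The median transcript had 1321 bases in the quartile with the shortest introns and 4097 in that with the longest. Which of these lengths the calls follow was not tested.

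The difference in rises between the shortest and the longest introns held in each count class. Only in the third class did the share called higher grow at each step of intron length. The second intron quartile had 12.7% higher in the top class and 5.82% in the second, below the shortest introns. In the bottom class the third intron quartile had 7.25%, below the 8.33% of the second. From the shortest to the longest introns the share called higher went from 5.58% to 13.9% in the bottom class, from 7.0% to 31.0% in the second, from 7.29% to 29.2% in the third and from 20.8% to 31.5% in the top class. For falls the direction differed between classes. The share called lower went from 4.01% to 8.91% in the bottom class and from 7.27% to 16% in the second, but from 21.2% to 18% in the third and from 30.7% to 17.7% in the top class. Rbp6, with 170 kb of introns, was among the rises named above. These shares describe genes of 1 comparison and carry no test, since genes are not replicates.

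**Figure D5:**
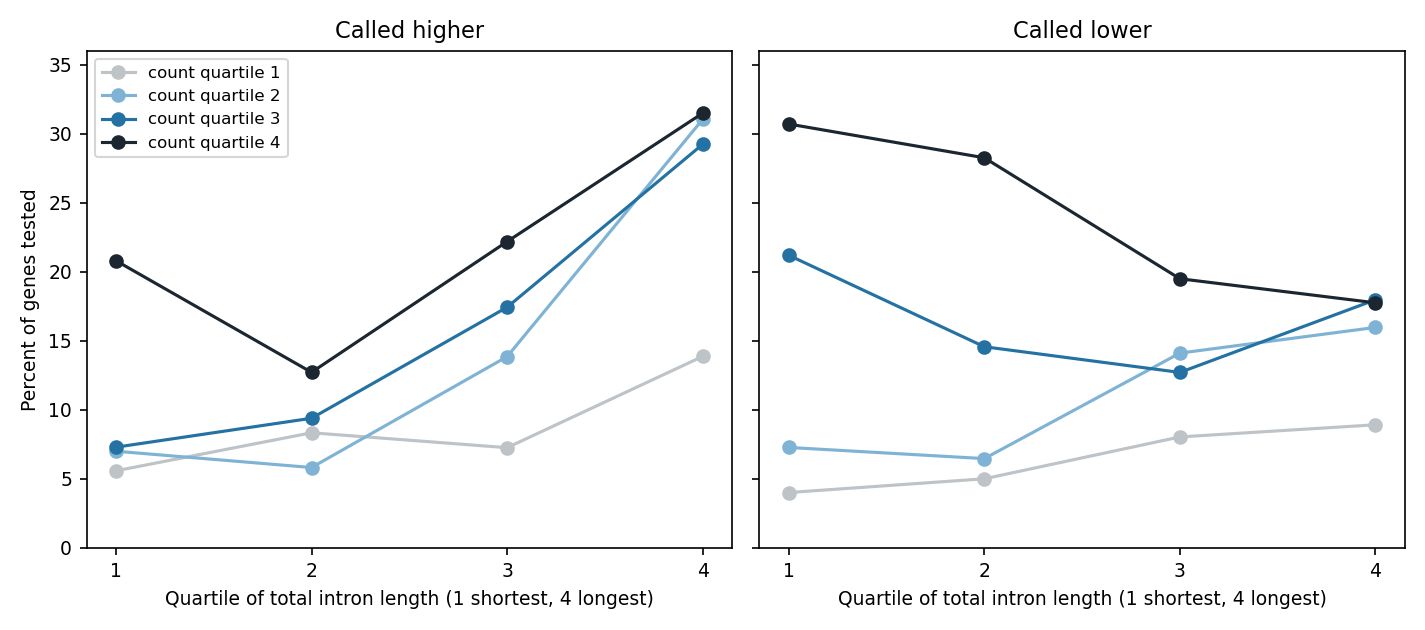
Share of genes called higher and lower by quartile of total intron length, within each of the 4 classes of mean normalised count. The share called higher is larger for the longest than for the shortest introns in each class, and the share called lower is smaller for the longest introns in the third and top classes.

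Chromosome 4, a small chromosome that is mostly heterochromatin, had 18 of 67 genes higher (26.9%) and 3 lower (4.48%), against 14.8% and 13.5% on the other arms. Its genes have long introns, and 49 of them were in the quartile with the longest. Among those 30.6% were higher and 2.04% lower, against 26.5% and 15.7% of genes of the same intron quartile on other arms. The largest gain was that of CG33521, at 1.10 ± 0.70 with a mean count of 12 in the authors' deposited table. The other gains were of less than 1, with the transcription factor subunit Taf3 at 0.85 ± 0.12, the ligand gene myo at 0.60 ± 0.12 and the kinesin Kif3C at 0.58 ± 0.11 in the authors' deposited table. The 3 genes that fell were unc-13, a vesicle priming factor, at −0.51 ± 0.09, the ribosomal protein gene RpS3A and the complex I subunit gene ND-49, at −0.21 ± 0.06 and −0.21 ± 0.08 in the authors' deposited table.

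Annotated transposon insertions were set beside the calls, with the limit that they are those of the reference strain and not of OSC, whose insertions were not analysed here. Of 719 genes holding an annotated insertion 24.9% were higher and 13.8% lower, against 14% and 13.4% of the others. Within quartiles of intron length the shares called higher, from the shortest introns to the longest, were 2.86%, 9.09%, 15.4% and 28.4% with an insertion and 8.01%, 8.64%, 16.6% and 25.9% without. The direction thus differed between quartiles, and the first 3 hold 35, 22 and 91 genes with an insertion. Within 5 kb of insertions of the 10 families with the largest sense gains lay 193 genes, of which 21.2% were higher, against 14.8% of the rest. From the shortest introns to the longest these shares were 8.33%, 4.76%, 14.3% and 30.6% near such an insertion and 7.92%, 8.68%, 16.6% and 26.4% elsewhere, again with no common direction.

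Called genes lay next to each other somewhat more often than their overall share. Of 1236 genes called higher the next gene also was in 245 (19.8%), against 14.9% of all genes, and of 1108 called lower it was in 184 (16.6%), against 13.4%. For changes of at least 1 on the log2 scale, a choice made after these values were seen, the distance was wider. Of 322 genes that rose by that size, the next gene on the arm also did in 52 (16.1%), against 3.89% of all genes. Of 191 that fell by that size the next gene did in 16 (8.38%), against 2.32%. The rises formed 41 runs with 93 genes, of which 32 were pairs, 8 held 3 genes and 1 held 5, and the falls formed 16 pairs. Measured genes only were counted as neighbours, and some neighbours share bases. The run of 5 was the small heat shock cluster of Hsp22, Hsp26, Hsp67Ba and Hsp23 with CG4456 (chromosome 3L, 9372722 to 9382765), in which CG4456 covers the exons of Hsp22. At chromosome 3L, 2505245 to 2586540, Spn, CG32295 and the kinase gene msn rose together, and CG32295 lies within the span of Spn.

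Several runs joined related genes. The lipid phosphatase genes wun and wun2 (chromosome 2R, 9400531 to 9417846) stood at 2.02 ± 0.38 and 2.45 ± 0.20, and the cytokine genes upd2 and upd3 (chromosome X, 18240654 to 18284596) at 1.51 ± 0.27 and 1.05 ± 0.18 in the authors' deposited table. The type IV collagen genes vkg and Col4a1, which are divergently transcribed (chromosome 2L, 5012144 to 5037279), fell together, at −1.17 ± 0.21 and −1.29 ± 0.15 in the authors' deposited table. Other runs joined genes with no shared family. The adhesion gene Fas2 rose with CG43288 and CG15570 (chromosome X, 4132887 to 4223331), and the octopamine-synthesising enzyme gene Tbh rose with CG15333 and CG2233 (chromosome X, 7995697 to 8037517). The sugar transporter gene Tret1-1 fell with Buffy (chromosome 2R, 11665768 to 11688557). The pair of armi and CG46463 is a single locus and is counted among the 16.

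The knockdown of Yb, the partner of Armitage, was compared with the same siLUC libraries, so the 2 comparisons share their control. In that comparison 6 genes of 8295 were called (0.0723%), and the authors' shrinkage had left 99.7% of its rows with an error under 0.01, so sizes are not set side by side here.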

How the data were processed

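Messenger RNA was measured in OSC, with 3 siARMI and 3 siLUC libraries. Per the labels' protocols, RNA was poly(A)-selected and libraries were made with a directional kit. The tools named in the submitters' processing notes are DESeq2, edgeR, Salmon 1.7.0, HOMER, STAR and Bowtie, without a role for any. The genome build was not given in the sources used here, nor was the strandedness of the counting. Per the file headers, the authors deposited a mean normalised count per row (a signal set by their own normalisation), a log2 fold change with its error, and a p-value before and after adjustment. The deposited log2 values had been shrunk by the authors. Among called genes only, the effect over its error was at the median 0.793 of the normal quantile of the p-value in the bottom count class. It was 0.980 for called genes of the top class.

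The table has no values per library, so depth and the precision it gives are unknown, and the count tests planned were replaced by the authors' calls. Adjusted p-values recomputed with the Benjamini-Hochberg method differed from those deposited by at most 1.55e-15. Of 8291 gene rows 2, both histone copies, had no p. Columns of other samples numbered 0. The sign was read as knockdown against control, since armi was negative.

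Gene rows were matched to the annotation of BDGP6.54 (Ensembl release 115), 8091 by symbol and 194 by synonym, and 6 were not matched. Of 227 named genes 77 share exon bases with another annotated gene, 9 of them most of their own exon bases, and such values are uncertain. Named genes were the 5 largest and 5 smallest log2 fold changes among called genes of each count class, the 10 genes of highest mean count, the 10 largest and 10 smallest among called transposon rows of each strand, up to 3 higher and 3 lower called members of each list, and armi, fs(1)Yb and cell type markers. Genes of chromosome 4 and of runs, CG46463, and transposon families outside these ranks were named after their values were seen. The members and the 41 lists, with 936 of 1132 symbols matched to 925 distinct genes, were chosen with earlier results of these data known. Python 3.11.15 was used with pandas 2.3.3, numpy 2.4.6, scipy 1.17.1 and matplotlib 3.10.9, and the steps were tested on simulated data. Alternatives were a stricter threshold, a size limit, a filter on low counts, other adjustments, centring and other count classes.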

Additional observations from a re-analysis of the deposited data

How the results depend on the processing

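Asking for a log2 fold change of at least 1 in size as well left 323 genes higher, 192 lower, 24 sense transposon rows higher and 14 antisense rows lower. It also turned the order of the count classes, with 11.5% of genes called in the bottom class against 6.37%, 3.72% and 3.28% in the classes above it, and left 8.35% of genes with the longest introns higher. These fall by construction, since a limit on size is added. A threshold of 0.01 gave 912 genes higher and 782 lower, and 9.22% called in the bottom class. The Benjamini-Yekutieli adjustment gave 834 genes higher and 690 lower, and left 238 of the 338 called list members. Leaving out rows with a mean count under 10 gave 1208 genes higher and 1113 lower. With a mean count of at least 50 on both strands, antisense exceeded sense in 22 of 34 families in the control and in 11 after knockdown. Centring on the top class, a shift of 0.02, and separate adjustment of genes and transposons moved no count by over 1.5 times. These settings keep the deposited fold changes, so they do not test directions. Of 217 called named genes 175 were called with the Benjamini-Yekutieli adjustment. Classes per kb gave called shares of 19.3%, 22.4%, 27.4% and 44.2%.

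No paired analysis was possible because the table gives no value per library. For the same reason leaving out each library, edgeR and DESeq2 were not run, and promoter motifs were not examined. Whether 1 library decides a value therefore cannot be shown. Depth is unknown, sizes of rows with few reads are understated by the shrinkage, and the part of antisense or overlapping genes in a value was not tested. The settings of strand balance, implied control level and intron length were chosen after seeing the data.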

Other observations

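Several lists held genes on both sides, against 14.9% higher and 13.4% lower over all genes. Counts near those shares are not read here as results about a list. By median count the nearer class is the bottom one (8.54% and 6.18%) for cytochrome P450 genes. It is the top one (23.9% and 21.4%) for redox defence and lysosomal genes. Of 43 cytochrome P450 genes 5 were higher (11.6%) and 8 lower (18.6%), with a median of −0.15. Cyp6a9 stood at 2.60 ± 0.18 and phm, an enzyme of ecdysone synthesis, at 1.59 ± 0.58, while spo, of the same pathway, stood at −2.95 ± 0.61 in the authors' deposited table. Of 30 glutathione transferases 4 were higher (13.3%) and 5 lower (16.7%), with GstS1 at 0.94 ± 0.08 and GstE6 at −0.61 ± 0.13 in the authors' deposited table. Of 20 redox defence genes 3 were higher (15%) and 4 lower (20%). Sesn, the sestrin gene, stood at 1.06 ± 0.06 and shares 65.1% of its exon bases with CG46429, and Sod2, the mitochondrial superoxide dismutase, stood at −0.42 ± 0.09 in the authors' deposited table. Of 29 proteases and serpins 7 were higher and 6 lower, with the matrix metalloproteinase Mmp2 at 2.17 ± 0.13 and the neprilysin-like Nepl4 at −2.43 ± 0.15 in the authors' deposited table. Of 15 receptors for transmitters and peptides 5 were higher and 4 lower, and the serotonin receptors 5-HT7 at 0.89 ± 0.16 and 5-HT1B at −2.79 ± 0.54 lay on opposite sides in the authors' deposited table.

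The lists that follow also stand against 14.9% higher and 13.4% lower over all genes. Of 17 lysosomal genes 5 were higher (29.4%) and 4 lower (23.5%), with the cathepsin Cp1 at 0.92 ± 0.06 in the authors' deposited table. Of 26 genes of fatty acids and triglycerides 5 were higher and 8 lower. The triglyceride-forming enzyme gene mdy stood at 0.96 ± 0.18 and the lipase gene bmm at −0.86 ± 0.26 in the authors' deposited table. Of 21 transporters of amino acids, sugars and monocarboxylates 6 were higher and 8 lower, with the amino acid transporter path at −0.87 ± 0.07 in the authors' deposited table. Of 30 Wnt pathway genes 4 were higher (13.3%) and 7 lower (23.3%). The secreted Wnt inhibitor Notum stood at −1.48 ± 0.16 and the ligand Wnt4 at −0.72 ± 0.14 in the authors' deposited table. Of 14 genes of the FGF and PVR pathways 4 were higher and 2 lower, with the receptor btl at 1.42 ± 0.41 and the ligand ths at −1.35 ± 0.21 in the authors' deposited table. Metal handling had 3 of 17 higher and 1 lower, the circadian clock 2 of 10 higher and 2 lower, and eggshell and yolk genes 1 of 5 higher and 0 lower.

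Other lists of the nucleus and of RNA handling had fewer members called higher than the 14.9% over all genes. Shares called lower lay on both sides of the 13.4% over all genes. The top count class, with 21.4% lower, is the nearer background for chromatin remodellers, heterochromatin genes and exosome and decapping genes. Their shares lower, 16.7%, 10% and 9.68%, lay below it. RNA polymerase I and III subunits (16.7%) and spliceosome genes (18.2%) were near the 16.2% lower of the third class. Polycomb and trithorax genes had 1 of 28 higher and 1 lower, Mediator subunits 1 of 28 higher and 0 lower, chromatin remodellers 1 of 24 higher and 4 lower, and heterochromatin genes 1 of 20 higher and 2 lower. Subunits of RNA polymerases I and III had 0 of 18 higher and 3 lower, spliceosome genes 2 of 33 higher and 6 lower, and exosome and decapping genes 2 of 31 higher and 3 lower. Outside the nucleus, genes of translocation into the endoplasmic reticulum and glycosylation had 1 of 31 higher and 3 lower, and mevalonate pathway genes 0 of 12 higher and 2 lower.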
